A study of Homo sapiens with 10 samples.

Results

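Integrins are the receptors through which cells hold on to the matrix around them, and laminins are large glycoproteins of the basement membrane to which many of those receptors bind. The genes of both families were followed through 10 RNA sequencing libraries of lung cancer cells that had survived anticancer drugs or had been grown in suspension. The members were the protein-coding genes of the deposited table whose symbols begin with ITGA, ITGB, LAMA, LAMB or LAMC and continue as a numbered chain or as one of the lettered integrin chains. This gave 41 of the 46427 genes listed. They comprised 18 integrin alpha subunits, 8 integrin beta subunits, 5 laminin alpha chains, 4 laminin beta chains and 3 laminin gamma chains. The other 3 were ITGB1BP1, ITGB1BP2 and ITGB3BP, which fit the spelling but code for proteins that bind integrin tails or were named for doing so. They are given apart, which left 26 integrin subunits and 12 laminin chains, 38 genes in all.

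H460 and A549 are established human lung cancer cell lines. The 7 libraries of attached H460 cells were 3 of untreated parental cells grown in 2D, 1 of cisplatin-resistant (CR) cells, 2 of paclitaxel-resistant (PR) cells and 1 of doxorubicin-resistant (DR) cells. Per the methods of the study, the drug was given for 3 days and fresh medium for 3 more, after which the cells were re-plated and those that attached were taken. The drug-resistant cells were thus survivors of a short exposure that could still attach, and not clones selected under drug. Tumour sphere (TS) cells, which the labels call CTC cells, were grown in suspension and gave 1 library for each line, and 1 library of A549 cells in 2D was the control for A549. The TS medium held B27, bFGF and EGF, so that suspension and medium cannot be told apart. CR, DR, each TS culture and A549 2D had 1 library and so no replicate. No label says whether libraries of the same group came from separate cultures, and p-values then measure the spread between these libraries, which may be technical.

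Libraries held between 59499787 and 89541774 reads on genes, with a median of 71656787. The number of genes with at least 1 read was 21036 to 21603 in the parental libraries, 22720 in CR, 25781 and 26133 in PR and 26745 in DR, and this rise stands beside every low-level member below, where its part was not tested. The epithelial keratins KRT8 and KRT18 exceeded an FPKM of 190 in every library. The epithelial adhesion genes EPCAM and CDH1 were near 0 in H460, with at most 0.114 and 0.027. The leukocyte genes PTPRC and CD3E stayed at or below an FPKM of 0.157 in all libraries. The 4 endothelial markers summed to 0.01 to 0.05 in parental and 0.02 to 0.15 in drug-resistant libraries and to 0.48 in H460 TS, nearly all of the last from KDR. The 4 platelet markers summed to at most 0.79 in H460, of which up to 0.74 was ITGA2B, itself a member, and to 1.64 in A549 TS, from PPBP and PF4, with GP9 at 0. FPKM, the unit of the levels below, is a count of fragments scaled for transcript length and library size, and it allows genes to be compared per length. The values come from bulk RNA, in which fewer cells that express a gene and less RNA per cell cannot be told apart.

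An integrin is a pair of 1 alpha and 1 beta subunit, and the pair decides what is bound. ITGA3 or ITGA6 joined to ITGB1, and ITGA6 joined to ITGB4, bind laminins. ITGA1, ITGA2, ITGA10 and ITGA11 pair with ITGB1 to bind collagens, and ITGA5, ITGA8 and the ITGAV pairs bind fibronectin, vitronectin and other proteins that carry the RGD motif. A laminin is a trimer of an alpha, a beta and a gamma chain and is named by their numbers, so that laminin-511 is built from LAMA5, LAMB1 and LAMC1, laminin-111 from LAMA1, LAMB1 and LAMC1, and LAMA3 and LAMB3 are chains of laminin-332. Laminin-332 is the anchoring laminin of epithelia, and ITGA6 with ITGB4 forms the hemidesmosome that holds to it. Integrins of leukocytes and platelets, such as ITGAL, ITGAM and ITGB2, serve contact between blood cells and vessel walls.

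LAMA3, LAMB3 and LAMB2, which rose together in drug-resistant cells, had a promoter in the RefSeq table used here, and the 3 sequences are shown to let them be compared. Each runs 5′ to 3′ on the strand of its gene from 250 bases before the start to 50 bases after it, on GRCh38.p14, and capitals mark a match to the AP-1 motif TGANTCA or the GC box GGGCGG on either strand (the latter reads CCGCCC on the other strand). No promoter of ITGA3 was held.
LAMA3, chr18:23872770-23873069, plus strand: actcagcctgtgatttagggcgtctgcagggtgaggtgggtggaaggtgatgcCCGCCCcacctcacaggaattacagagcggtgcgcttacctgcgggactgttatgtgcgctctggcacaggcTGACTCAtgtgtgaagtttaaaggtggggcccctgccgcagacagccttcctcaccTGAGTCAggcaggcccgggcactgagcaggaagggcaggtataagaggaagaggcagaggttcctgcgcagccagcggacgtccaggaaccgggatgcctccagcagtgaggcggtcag
LAMB3, chr1:209652376-209652675, minus strand: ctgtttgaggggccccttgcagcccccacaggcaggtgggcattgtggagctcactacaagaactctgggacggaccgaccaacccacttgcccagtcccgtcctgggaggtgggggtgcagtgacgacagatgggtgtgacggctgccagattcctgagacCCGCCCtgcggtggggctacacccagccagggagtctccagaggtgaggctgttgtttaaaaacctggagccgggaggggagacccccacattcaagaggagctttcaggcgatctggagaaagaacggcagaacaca
LAMB2, chr3:49133001-49133300, minus strand: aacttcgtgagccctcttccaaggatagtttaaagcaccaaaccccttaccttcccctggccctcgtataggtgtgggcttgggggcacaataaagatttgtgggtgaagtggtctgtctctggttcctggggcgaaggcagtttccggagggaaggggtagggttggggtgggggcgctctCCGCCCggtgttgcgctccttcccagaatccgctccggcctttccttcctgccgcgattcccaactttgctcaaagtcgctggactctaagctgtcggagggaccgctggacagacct
The LAMA3 promoter had 2 AP-1 matches, which began 125 and 69 bases before the start, and the other two promoters had none. The start used for LAMA3 lies inside the gene, whose span begins at position 23689453 of chromosome 18, and the deposited values do not separate the starts. Each of the 3 promoters held 1 GC box match. Among all 35116 promoters of this length, 7.71% held the AP-1 letters and 44.95% the GC box, against 2 and 14 of the 26 integrin and laminin promoters that were found. Another motif, the TEAD letters GGAATG, was in 14.03% of all promoters and 4 of the 26, and in none of the 3 shown. The motifs do not overlap one another in these windows, and a match is a description of letters, not of binding.

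Of the 38 genes, 11 had an FPKM of at least 1 in all 10 libraries, 13 in some of them, and 14 in none. The most abundant integrin subunit was ITGB1, the partner of most alpha subunits, with an FPKM between 157.53 in H460 TS and 647.91 in A549 TS. ITGB5, which pairs with ITGAV, came next among beta subunits in all 10 libraries with 40.38 to 188.12. Among laminins, LAMC1 and LAMB1 led in H460, with 150.31 to 337.24 and 82.30 to 341.60. The map of levels shows nearly all of the members whose FPKM reached 1 in a library.

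**Figure D1:**
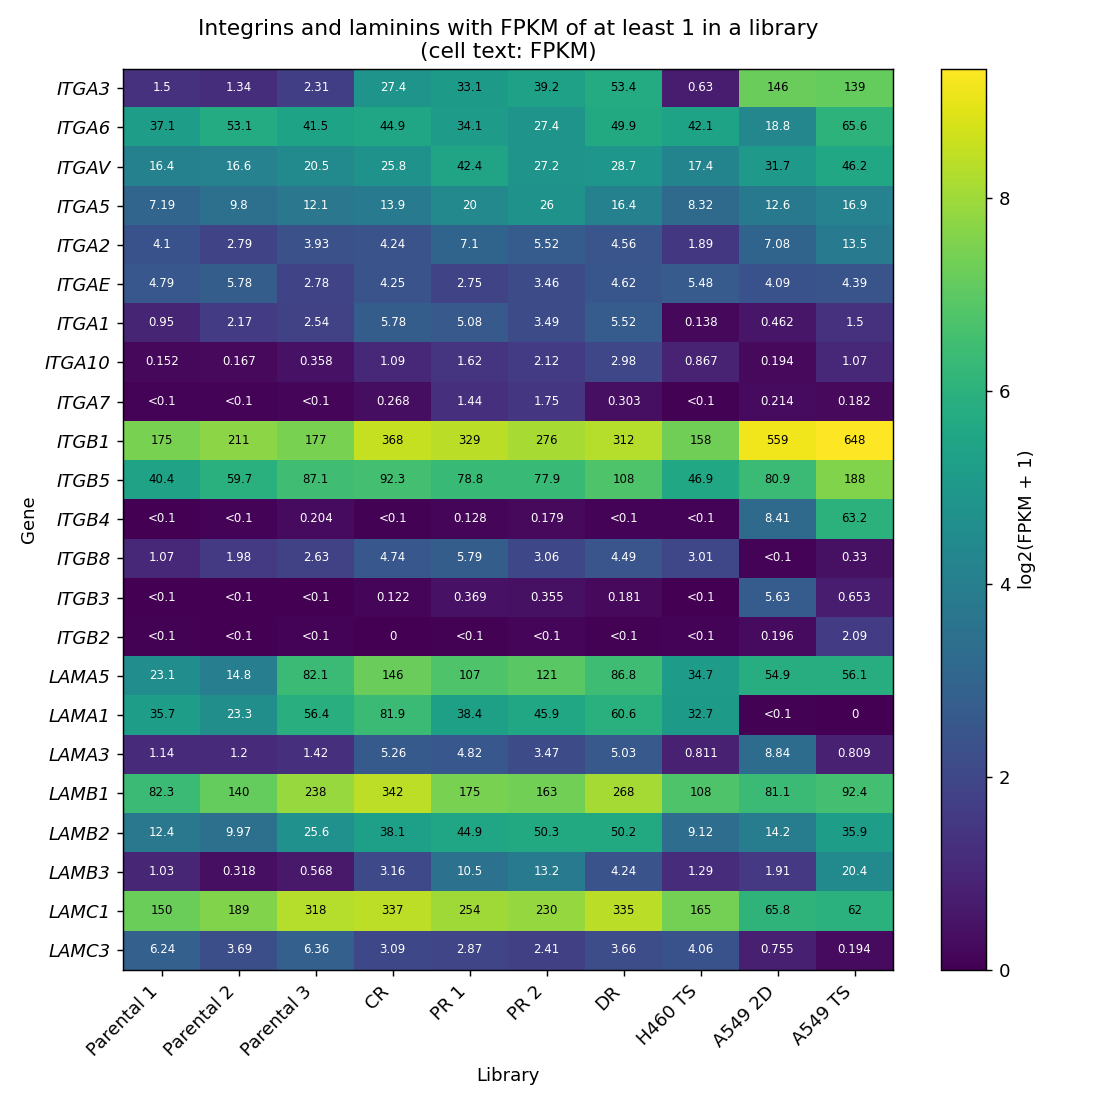
Levels of 23 of the 24 integrin and laminin genes whose FPKM reached 1 in a library. Columns are the 10 libraries, rows are genes in order of subunit class, colour is log2(FPKM + 1) and the text in each cell is the FPKM. ITGA3 changes from 1.34 to 2.31 in parental cells to 27.37 to 53.38 in drug-resistant cells, and LAMA1 is near 0 in both A549 libraries.

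Drug-resistant cells against parental cells were the comparison in which most members rose. Of 35 members with enough reads to be tested, 19 were higher and 1 was lower in the 4 drug-resistant libraries than in the 3 parental ones, at an adjusted p under 0.05 in edgeR's quasi-likelihood test over all genes. Over all 18222 genes tested, 18.1% were called higher and 15.5% lower. The median log2 fold change was 1.37 over the members tested (also with the 3 genes without parental reads at their bounds below) and 0.06 over all genes. With upper-quartile scaling the median over all genes moved to 0.23 and the share of higher calls among all calls from 53.9% to 66.9%, while the members again gave 19 higher and 1 lower. By class, 10 of 15 integrin alpha subunits, 5 of 8 beta subunits and 4 of 12 laminin chains rose, and LAMC3 fell. The FPKM of 21 members was higher in every drug-resistant library than in any parental one, a pattern that 25.9% of all genes showed, and LAMC3 was lower in all of them, as were 13.6% of all genes.

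Members and background were also split by level. Among 20 members with a mean FPKM of at least 1 over the 7 libraries, 11 rose and 1 fell, against 13.1% and 21.2% of genes at that level. Among 15 members below that level 8 rose and 0 fell, against 27.8% and 4.54% of genes. A gene needed a mean count of at least 10 over the 7 libraries to be tested. ITGAM, ITGAX, ITGB6, ITGB7, ITGA9 and ITGB3, each with at most 6 reads in a parental library, passed only through their drug-resistant reads. They could therefore only be called higher, here and among the 19, and their direction is no result of the test. All of them but ITGAX were also among the 21 members without overlap, as was LAMA4, with at most 13 reads in a parental library. The filter bears on that count in the same way. The same filter applied to all genes.

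ITGA3, the alpha subunit of the laminin receptor that prefers laminin-332 and laminin-511, had the largest log2 fold change among members with a mean FPKM of at least 1. Its FPKM was 1.50, 1.34 and 2.31 in parental replicates 1 to 3, 27.37 in CR, 33.06 and 39.20 in PR and 53.38 in DR. All drug-resistant libraries lay far above the parental ones, with means of 1.72 ± 0.52 (SD, n = 3) and 38.3 ± 11.2 (SD, n = 4). The edgeR log2 fold change was 4.34 (SE 0.34, adjusted p = 0.000119). ITGA3 lies on chromosome 17 from 50056110 to 50090481. Its share of the summed integrin alpha FPKM went from 1.45% to 2.66% in parental cells to 21.4% to 32.0% in drug-resistant cells.

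ITGA6, another alpha subunit for laminins, was not called. It was at 37.12, 53.10 and 41.53 in parental cells, 44.90 in CR, 34.07 and 27.37 in PR and 49.91 in DR, and the groups overlapped (log2 fold change -0.26, SE 0.26, edgeR adjusted p = 0.462). Both PR libraries lay under all parental ones, and in the fit of PR against parental cells the log2 fold change was -0.72 (SE 0.26, edgeR adjusted p = 0.0655), with a call by DESeq2 (adjusted p = 0.0274) and without parental replicate 1 (0.0482 in edgeR). Its share of the alpha subunits was 47.9% to 57.6% in parental cells, where it led, and 19.9% to 35.1% in drug-resistant cells. ITGB4, its partner in hemidesmosomes, was hardly read in H460, at 0.020, 0.061 and 0.20 in parental libraries, 0.031 in CR, 0.13 and 0.18 in PR and 0.073 in DR, and the groups overlapped.

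ITGB1, the beta subunit that ITGA3 needs, was at 174.79, 210.52 and 176.53 in parental cells and at 368.31 in CR, 329.04 and 276.34 in PR and 312.31 in DR. The groups did not overlap, and the log2 fold change was 0.68 (SE 0.21, edgeR adjusted p = 0.031). This call was lost when any library but PR replicate 2 was left out, with adjusted p-values from 0.0528 to 0.0988. The pseudogene ITGB1P1, with which reads could be shared, stood at 4.35 to 6.93 in parental and 8.65 to 12.2 in drug-resistant libraries.

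**Figure D2:**
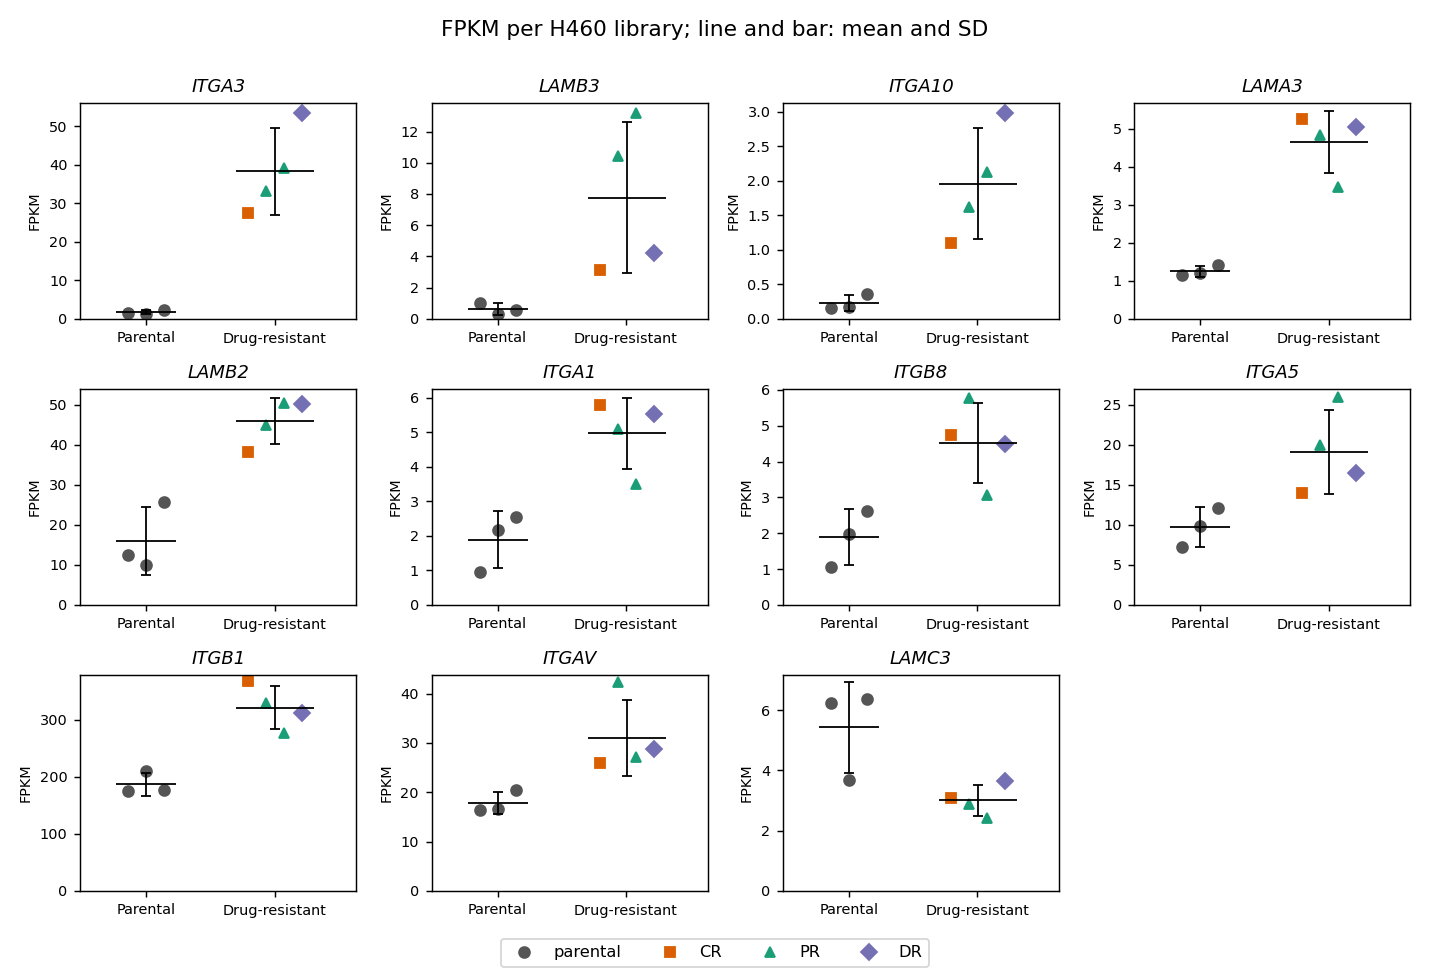
FPKM of 11 members that passed the test between drug-resistant and parental H460 cells and had a mean FPKM of at least 1 over these 7 libraries. Each point is a library, the colour and shape give the group, and the line and bar are the mean and SD over 3 parental or 4 drug-resistant libraries. The points of the groups do not overlap in these panels, though parental replicate 2 at 3.69 and DR at 3.66 almost meet for LAMC3, the 1 gene that falls.

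The alpha and the beta chain of laminin-332 rose. LAMA3 was at 1.14, 1.20 and 1.42 in parental libraries, 5.26 in CR, 4.82 and 3.47 in PR and 5.03 in DR. LAMB3 was at 1.03, 0.32 and 0.57, then 3.16, 10.46 and 13.18, and 4.24, in the same order. No drug-resistant library fell to the parental level for either chain, and for LAMB3 both PR libraries were above CR and DR. The log2 fold changes were 1.87 (SE 0.25, edgeR adjusted p = 0.000696) for LAMA3 and 3.43 (SE 0.55, edgeR adjusted p = 0.00152) for LAMB3. Each remained a small part of its class, since LAMA3 made up at most 3.30% of alpha and LAMB3 5.81% of beta chain FPKM in H460.

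The chains of laminin-511 and laminin-111 were far more abundant and were not called. LAMA5 was at 23.13, 14.80 and 82.13 in parental cells, 145.97 in CR, 106.76 and 121.40 in PR and 86.75 in DR. Parental replicate 3 lay close to the drug-resistant libraries, and the log2 fold change of 1.37 (SE 0.54) had an edgeR adjusted p of 0.0747. LAMA5 was called by limma on log2(FPKM + 1) and log2(FPKM + 0.1) (adjusted p = 0.008 and 0.00855) and by edgeR without parental replicate 3 (log2 fold change 2.50, adjusted p = 0.00172). LAMB1 was at 82.30, 139.98 and 237.98, then 341.60, 174.94 and 163.32, and 268.08 (edgeR adjusted p = 0.348). LAMC1 was at 150.31, 188.80 and 317.99, then 337.24, 253.89 and 229.72, and 334.78 (edgeR adjusted p = 0.524). For both of these genes parental replicate 3 exceeded both PR libraries, and parental replicate 1 was lowest. LAMA1 was at 35.71, 23.32 and 56.37, then 81.86, 38.38 and 45.86, and 60.64 (edgeR adjusted p = 0.388). The spread within the parental group thus covered much of the range of these 3 chains.

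LAMB2, the beta chain of laminins such as laminin-521, was the abundant laminin chain that did rise. It was at 12.35, 9.97 and 25.60 in parental libraries, 38.10 in CR, 44.93 and 50.29 in PR and 50.19 in DR, with a log2 fold change of 1.37 (SE 0.33, edgeR adjusted p = 0.0111). LAMC3, a less common gamma chain, was the member that fell. It was at 6.24, 3.69 and 6.36 in parental libraries, 3.09 in CR, 2.87 and 2.41 in PR and 3.66 in DR, a log2 fold change of -0.93 (SE 0.26, edgeR adjusted p = 0.0202). That call was lost without parental replicate 1 (adjusted p = 0.0611), parental replicate 3 (0.0541) or PR replicate 2 (0.0567).

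The chain shares give the same levels as parts of a whole. LAMA1 was 59.5%, 59.2% and 40.3% of the laminin alpha FPKM in parental replicates 1 to 3 and 25.6% to 39.7% in drug-resistant cells. LAMA5 was 38.5%, 37.6% and 58.7%, and then 56.9% to 71.1%. LAMA5 was thus the leading alpha chain in all 4 drug-resistant libraries but also in parental replicate 3. Among beta chains, LAMB1 made up 86.0% to 93.1% in parental and 72.0% to 89.2% in drug-resistant libraries, with the lowest shares in PR. LAMC1 made up 90.1% to 98.6% of the gamma chains over all 10 libraries.

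**Figure D3:**
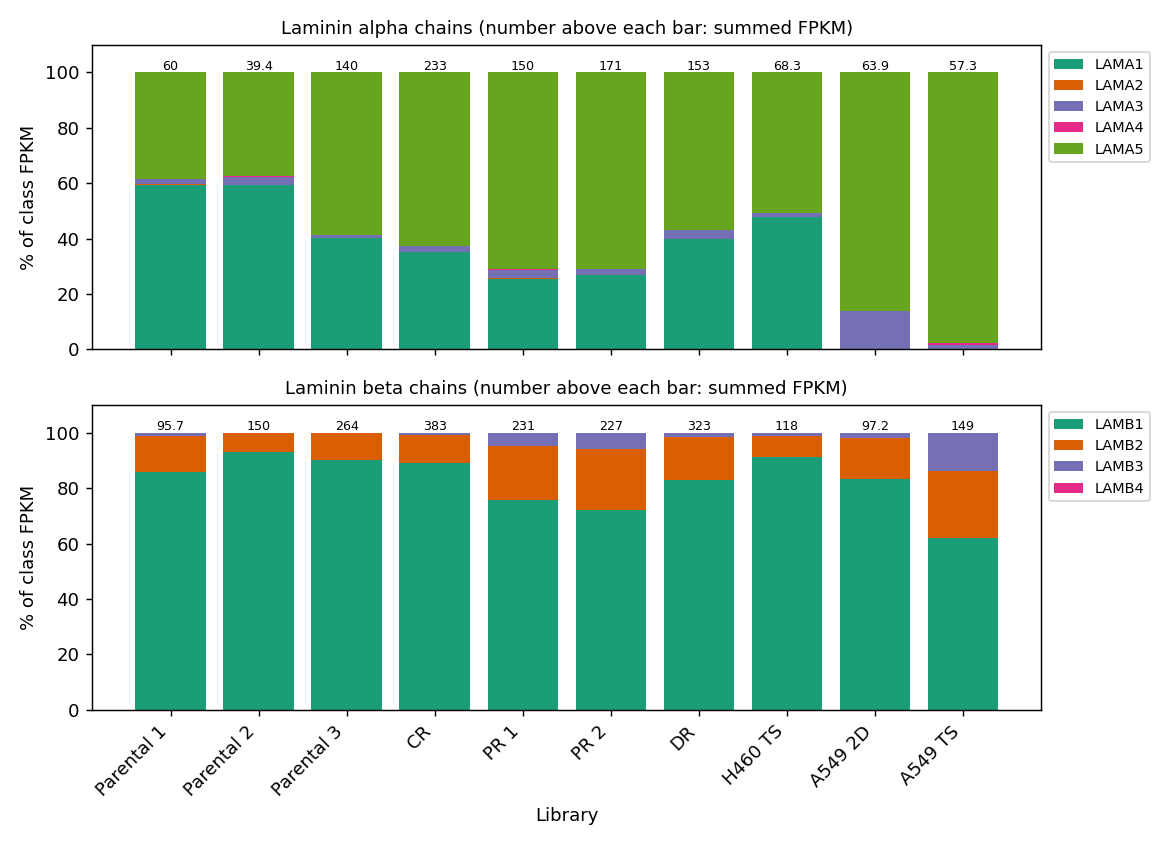
Share of each chain in the summed FPKM of laminin alpha and beta chains. Each bar is 1 library, the vertical axis is percent and the number above a bar is the summed FPKM of that class. LAMA1 and LAMA5 divide the alpha class in H460, A549 holds almost only LAMA5 with 13.9% LAMA3 in 2D, and LAMB3 reaches 13.7% of the beta class in A549 TS.

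Among collagen receptors, ITGA1 was at 0.95, 2.17 and 2.54 in parental libraries, 5.78 in CR, 5.08 and 3.49 in PR and 5.52 in DR. Its log2 fold change was 1.29 (SE 0.34, edgeR adjusted p = 0.0174), and the adjusted p was 0.0535 without parental replicate 2. ITGA1 shares 475 exon bases with PELO, a gene on the same strand, so that reads could be counted for either. ITGA10, the alpha subunit best known from cartilage, was at 0.15, 0.17 and 0.36, then 1.09, 1.62 and 2.12, and 2.98, a log2 fold change of 2.98 (SE 0.44, edgeR adjusted p = 0.00104). All drug-resistant libraries were above all parental ones for both genes. ITGA2 was at 4.10, 2.79 and 3.93, then 4.24, 7.10 and 5.52, and 4.56, with log2 fold change 0.43 (SE 0.22, edgeR adjusted p = 0.154). The groups did not overlap for ITGA2 either. It was called with the form of the library name, described below, as a covariate (log2 fold change 0.68, edgeR adjusted p = 0.0167).

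Among receptors for fibronectin and vitronectin, ITGA5, the alpha subunit of the main fibronectin receptor, was at 7.19, 9.80 and 12.13 in parental libraries, 13.92 in CR, 19.99 and 26.00 in PR and 16.42 in DR. ITGAV was at 16.41, 16.63 and 20.50, then 25.85, 42.40 and 27.19, and 28.69. The groups did not overlap for either gene. The log2 fold changes were 0.83 (SE 0.24, edgeR adjusted p = 0.0244) and 0.67 (SE 0.22, edgeR adjusted p = 0.0386). The call of ITGA5 was lost without parental replicate 1 (0.0858), parental replicate 2 (0.0791) or PR replicate 2 (0.0647), and that of ITGAV without any one of parental replicates 1 and 2, CR, DR and PR replicate 1 (adjusted p from 0.054 to 0.123). Of the beta subunits that join ITGAV, ITGB8 was at 1.07, 1.98 and 2.63, then 4.74, 5.79 and 3.06, and 4.49, a log2 fold change of 1.16 (SE 0.32, edgeR adjusted p = 0.021), which was lost without parental replicate 1 (0.0577) or 2 (0.0729). ITGB5 ranged from 40.38 to 87.12 in parental and from 77.86 to 108.40 in drug-resistant cells and was not called (edgeR adjusted p = 0.373).

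ITGB3, the other well-known partner of ITGAV, rose from almost nothing. It had 4, 2 and 5 reads in parental replicates 1 to 3 and 65 in CR, 186 and 141 in PR and 109 in DR, for an FPKM of at most 0.37 (log2 fold change 4.91, SE 0.58, edgeR adjusted p = 0.000396). Its exons share 2266 bases with AC068234.1, a gene on the same strand. ITGA7, a laminin receptor subunit of muscle, had an FPKM of 0.05 to 0.10 in parental cells and of 0.27 in CR, 1.44 and 1.75 in PR and 0.30 in DR, so that the PR libraries stood apart from the others (log2 fold change 3.40, SE 0.68, edgeR adjusted p = 0.00474). ITGA9 had 6, 0 and 4 reads in parental libraries against 20, 112, 83 and 90 in CR, PR 1, PR 2 and DR (log2 fold change 4.32, SE 0.89, edgeR adjusted p = 0.00498).

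Of the 7 tested subunits known from leukocytes and platelets, 4 rose at very low levels. The share called higher was 18.1% of all genes and 27.8% of genes with a mean FPKM under 1. Of the 4, ITGAM, ITGAX and ITGB7 could only be called higher, since they passed the read filter only through their drug-resistant reads. ITGA4 had an FPKM of 0.061, 0.034 and 0.057 in parental libraries, 0.20 in CR, 0.27 and 0.15 in PR and 0.20 in DR, without overlap (log2 fold change 1.83, SE 0.41, edgeR adjusted p = 0.00757). ITGB7 had 0, 3 and 0 reads in parental libraries and 6, 32, 36 and 7 in CR, PR 1, PR 2 and DR (edgeR adjusted p = 0.0286), and its exons share 1474 bases with ZNF740 on the other strand. ITGAM and ITGAX had 0 reads in all 3 parental libraries. ITGAM had 14 in CR, 82 and 125 in PR and 39 in DR, and ITGAX had 0, 57, 44 and 6. Against a floor of 3 reads over the parental group, which covers counting error only, ITGAM was at least 60.9-fold and ITGAX at least 25.1-fold higher. The same floor put ITGB6, an epithelial partner of ITGAV with 0 parental reads and 8, 39, 15 and 25 drug-resistant ones, at least 20.4-fold higher. Genes with a single read were outnumbered in each library by genes with 2 (672 against 987 in parental replicate 1), so a count may not be 1 independent read, and these 3 bounds assume that it is. ITGAM and ITGAX were most read in the PR libraries, where the number of genes with a read was above that in parental cells, as it was in DR. The call of ITGAX did not hold when any parental library or PR replicate 2 was left out (adjusted p from 0.0752 to 0.0828 and 0.0682), and that of ITGB7 was lost without parental replicate 1 (0.0867) or 3 (0.0816). Without PR replicate 1, ITGAX, ITGB6 and ITGB7 had too few reads to be tested, as had ITGB7 without PR replicate 2.

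Leukocyte markers moved in part with these subunits. The summed FPKM of the 5 markers was 17.8 to 26.4 in parental and 42.2 to 72.5 in drug-resistant libraries, nearly all of it from CD68 and CD14, which other cells also express, while CD3E was at or below 0.058 and PTPRC at or below 0.157. Of the 3 that were tested 2 were higher, CD68 and PTPRC. The 5 fibroblast markers summed to 1.29 to 6.00 in parental and 6.05 to 19.6 in drug-resistant libraries, with COL1A1 and DCN called higher of 4 tested. Of the endothelial markers VWF alone had enough reads to be tested and was called higher (log2 fold change 2.27, edgeR adjusted p = 0.0266) at an FPKM of at most 0.078, and the 1 platelet marker tested, the member ITGA2B, was not called. The part of other cells in the members' levels was not tested.

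The members left had no call in this fit. ITGA11, LAMA4 and LAMB4 had positive log2 fold changes of 2.06, 1.98 and 1.74 with adjusted p of 0.122, 0.0941 and 0.0896 in edgeR, and LAMA2, ITGB2, ITGB4, ITGAE and ITGA2B had adjusted p-values of 0.371 or more. ITGA11, LAMA4 and LAMB4 passed the read filter only through their drug-resistant reads. Without CR, ITGA11 and LAMB4 were called (edgeR adjusted p = 0.0155 and 0.0129). Both were also called in PR against parental cells (log2 fold changes 2.35 and 2.16, edgeR adjusted p = 0.0325 and 0.0205). Neither PR call held without parental replicate 2 or without either PR library. That of ITGA11 was also lost without parental replicate 3 and with the replicate block (edgeR adjusted p = 0.0663 and 0.0512). ITGA8, ITGAD and ITGAL had too few reads to be tested. ITGAE, which on T cells pairs with ITGB7, was present in every library at 2.75 to 5.78. Of the binding proteins, ITGB3BP, better known as the centromere protein CENP-R, fell from 18.85, 25.57 and 10.83 in parental libraries to 5.13 in CR, 4.35 and 3.22 in PR and 4.19 in DR (log2 fold change -2.19, SE 0.28, edgeR adjusted p = 0.000545). ITGB1BP1, which binds the tail of ITGB1, and ITGB1BP2, a muscle protein, had log2 fold changes of -0.53 and -1.02 and were not called (edgeR adjusted p = 0.0987 and 0.0659).

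**Figure D4:**
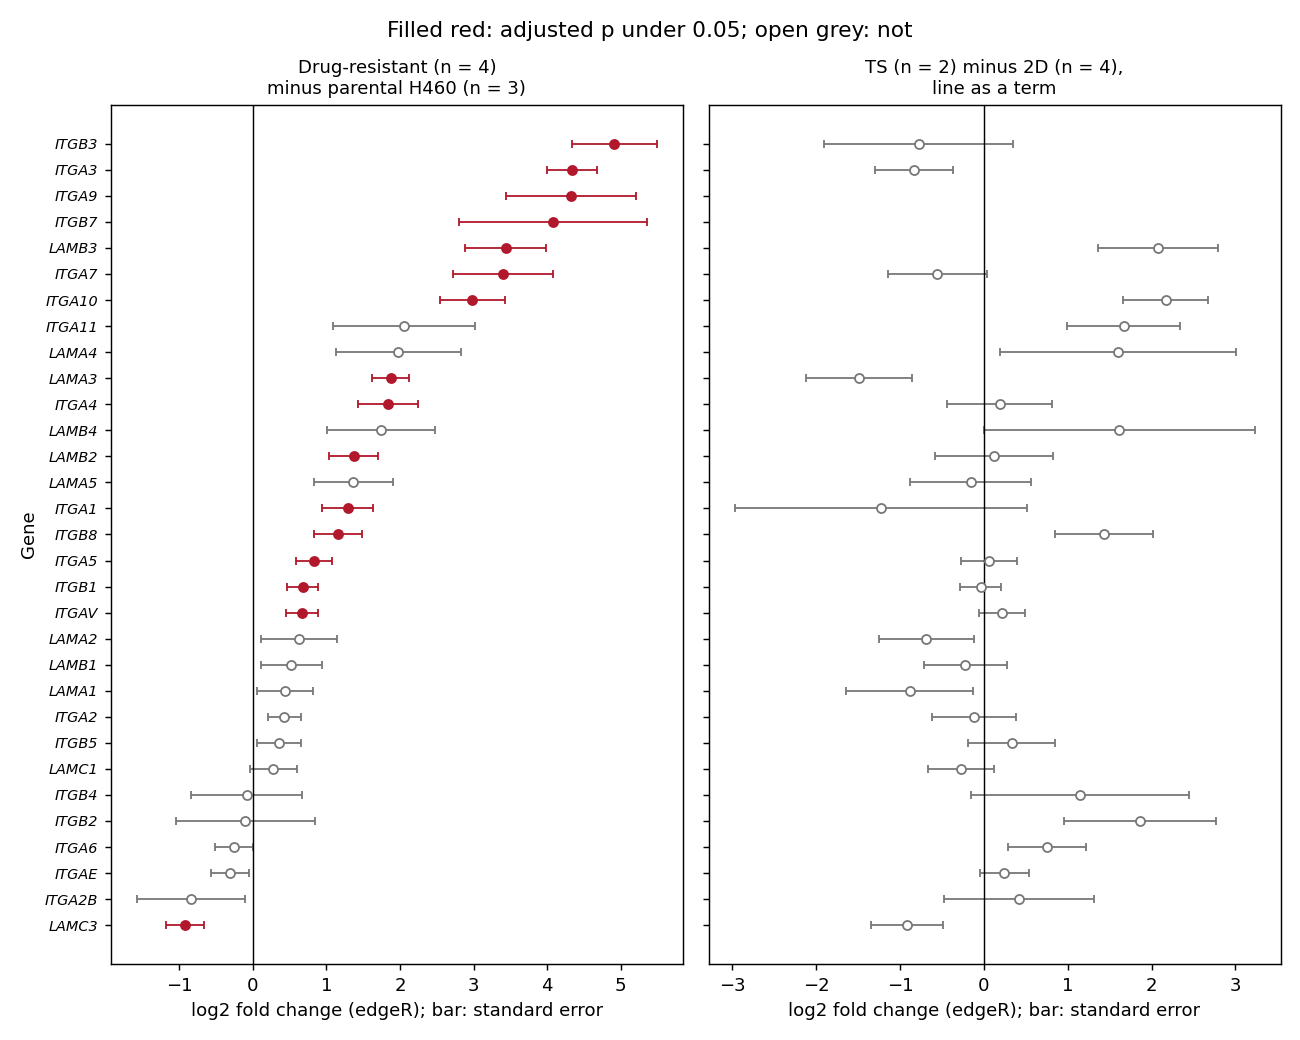
Log2 fold changes of 31 integrin and laminin genes from edgeR, with bars for the standard error, in drug-resistant against parental H460 cells (left) and in TS against 2D cells with the cell line as a term (right). Filled red points have an adjusted p under 0.05. ITGAM, ITGAX and ITGB6 are not drawn because all parental libraries were at 0, and ITGA9 and ITGB7 had too few reads for the right panel. The left panel holds red points from ITGB3 at 4.91 to LAMC3 at -0.93, and the right panel holds none.

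Library names came with and without a hyphen, a form that divides the parental libraries too (replicates 1 and 3 without, replicate 2 with). PR replicate 1 against parental replicates 1 and 3, and CR, PR replicate 2 and DR against parental replicate 2, were therefore compared within each form. All 19 members called higher had a positive difference of mean log2(FPKM + 1) in both forms. For all of them but ITGAX the groups did not overlap, so the sign was fixed in advance and is no check on the form. That difference was 3.57 and 4.08 for ITGA3, 1.36 and 1.33 for LAMA3, and 2.69 and 2.36 for LAMB3. It was 1.27 and 2.88 for LAMA5 and -0.22 and 1.35 for LAMA1, so the forms gave unlike values for the abundant alpha chains.

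For the separate drugs, only paclitaxel had replicates. Between the 2 PR and the 3 parental libraries 17 members were higher and 1 lower, against 15.6% and 10.8% of all genes. The parental libraries were the same as in the fit above. ITGA3 (log2 fold change 4.16, SE 0.32), LAMB3 (3.99, SE 0.43), LAMA3 (1.58, SE 0.29) and ITGA7 (4.11, SE 0.41) were among the 17 higher members, with edgeR adjusted p-values of 0.000267, 0.000835, 0.00425 and 0.000558. Also among the 17 were ITGAM, ITGAX, ITGB6, ITGB7, ITGA9, ITGB3 and ITGA11, which passed the read filter only through their PR reads. They could only be called higher, and their direction is no result of the test. ITGB1 (0.49, SE 0.23, adjusted p = 0.142), ITGA1 (0.97, SE 0.40, adjusted p = 0.101), ITGB8 (1.03, SE 0.41, adjusted p = 0.0885) and ITGAV (0.75, SE 0.28, adjusted p = 0.0795) did not pass in edgeR in PR alone. ITGAV did pass there with DESeq2, upper-quartile scaling, limma on log2(FPKM + 1), the replicate block and without parental replicate 3 (adjusted p from 0.028 to 0.0495), as did ITGA1 and ITGB8 with that limma test (0.0327 and 0.0401) and without parental replicate 3 (0.0426 and 0.0294). LAMA5 (1.25, adjusted p = 0.192) passed with that limma test (0.0244), the replicate block (0.00396) and without parental replicate 3 (0.00425). ITGA2 (0.59, adjusted p = 0.148) passed in edgeR with upper-quartile scaling (0.0477) and the replicate block (0.0461). Without either PR library the count went to 10. LAMB2 was called (1.33, SE 0.40, adjusted p = 0.0372) but not without parental replicate 1 or 2 or either PR library (adjusted p from 0.0887 to 0.19). With upper-quartile scaling, the share of higher calls among all calls in PR went from 59.1% to 72.7% and the members gave 19 higher and 0 lower, as LAMC3 no longer passed.

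Each drug was also set against the parental mean of log2(FPKM + 1) with no test, where a difference over 2-fold was counted among the 24 members whose FPKM reached 1 in a library. In CR 9 members were higher and 0 lower, against 5.13% and 6.2% of all genes at that level. In PR the counts were 9 and 0, against 7.02% and 5.17%, and in DR 7 and 0, against 5.06% and 4.99%. ITGA3, LAMA3, LAMA5, LAMB2 and LAMB3 were past 2-fold in all 3. ITGA3 differed by 3.40 on this log2 scale for CR, by 3.78 for PR and by 4.34 for DR. ITGA7 and ITGA5 passed in PR (1.27 and 1.18) and were at 0.24 and 0.51 in CR and 0.28 and 0.73 in DR. LAMA1 and LAMB1 passed in CR (1.16 and 1.28) and were at 0.21 and 0.27 in PR and 0.73 and 0.93 in DR. Differences between drugs were not tested.

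Suspended against attached cells was the second comparison of the design. Across both lines, with the line as a term, 0 of 35 members passed in edgeR in either direction, and 4 were higher and 0 lower at an unadjusted p under 0.05, as were 5.02% and 3.03% of all genes. Among all genes, 0.164% were called higher and 0.0452% lower. The median log2 fold change was 0.19 over the members and -0.02 over all genes. DESeq2 called 1 member, ITGA10, which was at 0.15 to 0.36 in parental and 0.87 in TS cells of H460 and went from 0.19 to 1.07 in A549 (edgeR log2 fold change 2.17, SE 0.51, adjusted p = 0.203). The other members with an unadjusted p under 0.05 were LAMB3, ITGA11 and ITGB8. With 2 TS libraries, 1 of each line, the fit recovered 11% of genes changed 2-fold and 75% of those changed 4-fold in simulated counts. Only well-read genes were changed there, so recovery for members with few reads was not measured.

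In H460, TS was set against the parental mean on the log2(FPKM + 1) scale, which understates changes of low genes. On that scale no member was more than 2-fold higher, as 1.66% of all genes were, and ITGA1 was the member more than 2-fold lower, as 1.69% of all genes were. In FPKM itself ITGA10 was at 0.87 against 0.15 to 0.36 in the parental libraries. ITGA1 was at 0.14 in TS against 0.95 to 2.54 in parental cells. ITGA3 was at 0.63, under all 3 parental libraries, and LAMA3 at 0.81 and LAMB2 at 9.12 were also just under them. LAMA5, LAMB1 and LAMC1 were at 34.74, 107.71 and 165.40, inside the parental range, as were ITGA6 at 42.11, ITGAV at 17.40, ITGA5 at 8.32 and ITGB5 at 46.90. ITGB1 at 157.53 and ITGA2 at 1.89 were below the parental range, and ITGB8 at 3.01 and LAMB3 at 1.29 were above it.

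In A549, 6 members were more than 2-fold higher in TS than in 2D on the same log2(FPKM + 1) scale and 3 were lower, against 5.86% and 2.64% of all genes at that level. At lower levels, ITGA10 went from 0.19 to 1.07 and ITGA1 from 0.46 to 1.50 in FPKM without passing on that scale. ITGB4 went from 8.41 to 63.19 and ITGA6 from 18.82 to 65.58, so that both subunits of the hemidesmosome receptor were higher in the TS library. LAMB3 went from 1.91 to 20.40, LAMB2 from 14.15 to 35.92, ITGB5 from 80.86 to 188.12 and ITGB2, the beta subunit of leukocytes, from 0.20 to 2.09. Among the members that were lower, LAMA3 went from 8.84 to 0.81 and ITGB3 from 5.63 to 0.65. LAMB3 and LAMA3, chains of the same trimer, thus stood in opposite directions in that library. ITGA3 was at 146.12 and 139.33, and ITGB1 was at 559.28 and 647.91. Both A549 groups are 1 library, and these differences have no replicate check.

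**Figure D5:**
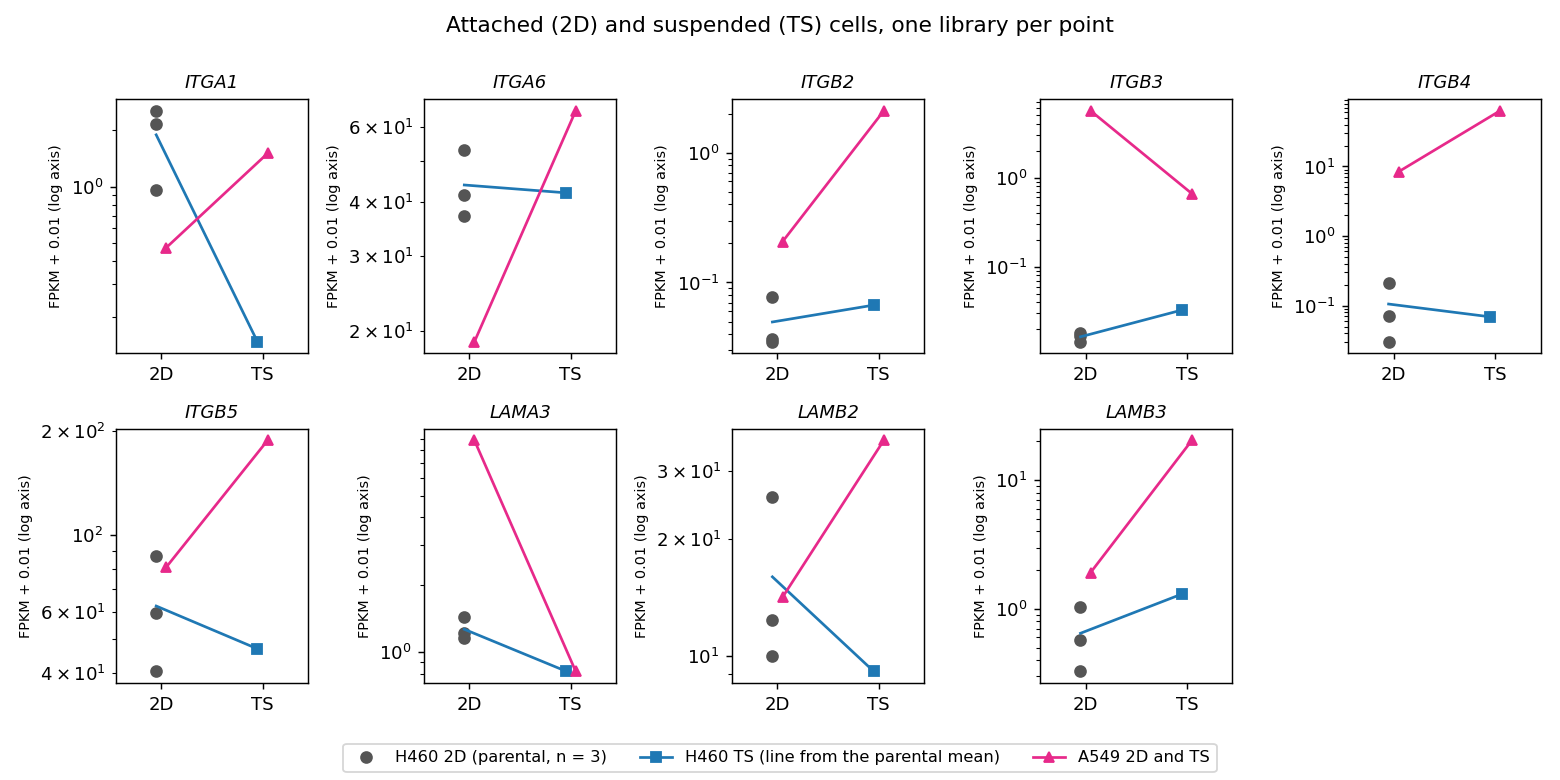
FPKM + 0.01 on a log axis in attached (2D) and suspended (TS) cells for 9 members that differed more than 2-fold on the log2(FPKM + 1) scale in either line. Grey circles are the 3 parental H460 libraries, the blue square is H460 TS with a line from the parental mean, and pink triangles are the A549 libraries. ITGB4 goes from 8.41 to 63.19 and LAMA3 from 8.84 to 0.81 in A549, while H460 TS lies at 0.06 and 0.81.

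The TS effects of the lines were compared by an interaction term, whose spread comes from the 3 parental libraries alone, so that the single libraries are assumed to vary like them. Of 35 members 0 passed in edgeR, and 6 were higher and 5 lower in A549 at an unadjusted p under 0.05, against 6.08% and 2.6% of all genes. Among all genes 0.457% and 0.13% were called. The smallest adjusted p-values were those of ITGA1 (difference of log2 fold changes 5.53, SE 0.99, edgeR adjusted p = 0.0619), ITGB3 (-4.66, SE 0.89, edgeR adjusted p = 0.0671) and LAMA3 (-2.84, SE 0.63, edgeR adjusted p = 0.103). DESeq2 called 5 members, ITGA1, ITGA6, ITGAM, ITGB3 and LAMA3. ITGB4 had a difference of 3.69 (SE 1.76, edgeR adjusted p = 0.685). Its parental libraries had 10, 28 and 114 reads.

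More members were called between the lines than between the cultures. In the same fit, with A549 represented by 2 libraries and H460 by 4, 14 of 35 members were higher in A549 and 4 lower, against 14.6% and 9.6% of all genes. Of these, ITGA8, ITGAL, ITGAM, ITGAX, ITGB2, ITGB3 and ITGB6 passed the read filter only through their A549 reads, and LAMA1 only through its H460 reads. Their direction is therefore no result of the test, and the same filter applied to all genes. ITGA3 was at 146.12 and 139.33 in A549 and at 0.63 to 2.31 in the 4 H460 libraries of this fit (log2 fold change 6.95, SE 0.46, edgeR adjusted p = 0.000315). ITGB4, at 8.41 and 63.19 against at most 0.20, and ITGB3, at 5.63 and 0.65 against at most 0.02, were also higher (edgeR adjusted p = 0.00518 and 0.0023). ITGB1 was higher by 1.76 on the log2 scale (SE 0.23, edgeR adjusted p = 0.00288). LAMB3 was called higher (2.60, SE 0.71, edgeR adjusted p = 0.0384) but not without parental replicate 2 (0.0837) or 3 (0.0829), and LAMA3 did not pass (adjusted p = 0.0561). The drug-resistant H460 libraries, with ITGA3 at 27.37 to 53.38, stayed under A549 for this gene.

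The 4 members lower in A549 were LAMA1, LAMC1, LAMC3 and ITGB8. LAMA1 had 21 and 0 reads in A549 2D and TS against 16600 to 48466 in the 4 H460 libraries (edgeR adjusted p = 0.00144), so that LAMA5 made up 86.0% and 97.9% of the alpha chain FPKM in A549. LAMC1 was at 65.81 and 62.04 against 150.31 to 317.99 (log2 fold change -1.63, SE 0.42, edgeR adjusted p = 0.0313, and 0.0633 without parental replicate 2). ITGB8 was at 0.05 and 0.33 against 1.07 to 3.01 (log2 fold change -4.17, SE 0.69, edgeR adjusted p = 0.00716), and LAMC3 at 0.76 and 0.19 against 3.69 to 6.36 (log2 fold change -3.36, SE 0.50, edgeR adjusted p = 0.00476).

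The 3 lists of other genes of the pathway were read in the same fits, in which 18.1% of all genes were higher and 15.5% lower in drug-resistant cells. Of 28 tested adaptors of the integrin tail and of focal adhesions, 5 were higher and 4 lower in drug-resistant cells, shares near those of all genes, with a median log2 fold change of 0.0001. BCAR1, a scaffold of integrin signalling, was the abundant one with a log2 fold change of at least 1 (1.12, edgeR adjusted p = 0.003), and the others, TLN2, LIMS2 and TNS1, were at an FPKM of at most 1.24 in H460. LIMS2 and TNS1 were at an FPKM of at most 0.016 in parental libraries. They passed the read filter through their drug-resistant reads and could only be called higher. The kindlin FERMT2 and the focal adhesion kinase PTK2 were lower (-0.92 and -0.50, edgeR adjusted p = 0.002 and 0.038).

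Of 17 basement membrane partners and other laminin receptors, 10 were higher and 2 lower, the latter a share near that of all genes, with a median of 0.84. NTN4, a netrin that binds laminin gamma chains, was at 14.4 to 18.3 in parental and 56.8 to 77.5 in drug-resistant libraries (log2 fold change 1.93). AGRN, which ties laminin to the cell surface, was at 12.4 to 35.9 and then 61.8 to 67.1 (1.38). PLEC, the plakin that links ITGB4 to keratins, and the nidogen NID1, which joins laminin to collagen IV, had log2 fold changes of 1.21 and 2.83. The collagen IV chains divided, since COL4A3, COL4A5 and COL4A6 rose (1.29, 1.43 and 1.05) and COL4A1 and COL4A2 fell (-1.59 and -1.01). COL17A1, a hemidesmosome collagen, was listed at 0 in parental libraries and at an FPKM of 0.063 to 0.29 in drug-resistant ones. It passed the read filter only through its drug-resistant reads, so among the 10 it could only be called higher.

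Of 15 other integrin ligands tested, 7 were higher and 0 lower, with a median of 1.29. FN1, the ligand of ITGA5, was at 467, 171 and 911 in parental libraries and at 3315 to 4804 in drug-resistant ones (log2 fold change 2.80, edgeR adjusted p = 0.004). VTN, the ligand of ITGAV pairs, was at 5.00 to 9.36 and then 28.9 to 81.2 (2.64), and FBN1 at 1.09 to 2.91 and then 10.9 to 20.8 (3.00). CCN1 rose by 1.17, and THBS1, COL1A1 and TNC rose at lower levels, TNC from 0 in all parental libraries. TNC thus passed the read filter only through its drug-resistant reads and could only be called higher. In the TS fit 0 genes of any of the 3 lists were called by edgeR.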

How the data were processed

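RNA sequencing of poly(A) RNA from 10 cultures of the cell lines H460 and A549 was re-analysed. The authors deposited whole-number read counts of 46427 genes, not normalized, and FPKM values, which are scaled for transcript length and library size. The FPKM was not a fixed scaling of the count. ITGB7 had 3 reads at an FPKM of 0.000429 in parental replicate 2 and 6 reads at 0.022 in CR. TPM values, which the authors also deposited, were not used. The submitters' processing notes name bcl2fastq 1.8.4, Trimmomatic, HISAT2 2.1.0, StringTie 2.1.3b and GRCh38. Whether counting used strand, and what became of reads shared by several genes, is not given in the sources used here.

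Genes with a mean count of at least 10 over the libraries of a fit were tested with edgeR 4.0.16 (TMM scaling, robust quasi-likelihood test) in R 4.3.3, with Benjamini-Hochberg adjustment over all genes tested and calls were made under 0.05. A fit set the 4 drug-resistant libraries against the 3 parental ones and another set PR (2) against parental (3). TS against 2D and A549 against H460 were terms of the same fit of 6 libraries. An interaction of line and culture was fitted to the same 6. Pooling the drugs puts their own differences into the spread of the first of these. FPKM values were used for levels, shares and, as log2(FPKM + 1), for groups of 1 library, a scale that understates changes of low genes. No fold change is given where a group had no reads, except against a floor of 3 reads over the group.

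Alternatives were DESeq2 1.42.0, limma 3.58.1 on log2(FPKM + 1) and log2(FPKM + 0.1) (genes reaching an FPKM of 1 in 2 or more libraries), upper-quartile scaling, no filter, the form of the library name as a covariate, a replicate block and leaving out single libraries. The within-form comparison and the reading of the TS libraries line by line were added after seeing the data. In simulated counts with 100 genes changed 2-fold and 100 changed 4-fold, the drug-resistant fit recovered 32% and 94%, with 3.1% false calls. The changed genes were drawn from well-read genes, so these rates do not cover members with few reads.

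All members were fitted and counted. Given library by library were those called with a log2 fold change of at least 1, chains of laminin-332 and laminin-511 with their receptors, and ITGA2, ITGA5 and ITGAV. Results of some genes are not reported here, though they stay in the counts. The members and lists were chosen with earlier results of these data known. Gene positions and promoters came from RefSeq on GRCh38.p14 (26 of 38 promoters matched), and exon overlaps from GENCODE 29. Figures were drawn with matplotlib 3.10.9.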

Additional observations from a re-analysis of the deposited data

How the results depend on the processing

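Of the 35 members tested, the number called between drug-resistant and parental cells was 20 and lay between 13 and 20 with 1 library left out, the lowest without parental replicate 1. The number called between PR and parental cells was 18 and lay between 10 and 21 with 1 library left out, the lowest without either PR library. Between A549 and H460, 18 members were called, and limma called 10 of 20 members at either pseudocount. For TS against 2D, DESeq2 called 1 member and edgeR 0, and for the difference of the TS effect between the lines DESeq2 called 5 and edgeR 0. Member counts under the other alternatives were within 1.5 times the number given in the report. The cause of these differences was not tested, except that limma tested fewer members because of its FPKM filter. ITGA3, LAMA3, LAMB3, LAMB2, ITGA10 and ITGA7 were called between drug-resistant and parental cells under every alternative run. Without a filter on low counts the calls of ITGB1, ITGAV and ITGAX were lost (adjusted p = 0.053, 0.0565 and 0.0549 in edgeR), and with the form of the library name as a covariate those of ITGB1, ITGB7 and LAMC3 (0.0659, 0.0519 and 0.104). With that covariate ITGA2 gained a call (edgeR adjusted p = 0.0167). Of 555 recomputed log2 fold changes of single members, 0 reversed and 69 fell short of the threshold, 59 of them with a library left out.

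PR and parental replicates 1 and 2 share numbers, and also the form of the library name, without a hyphen for replicate 1 and with it for replicate 2. The differences between replicates correlated with r = 0.09 across 18179 genes and 2 pairs. With 1 difference per group this cannot decide on pairing, and the block was run as an alternative only. With the replicate block 22 members were called, and without the block in the same 4 libraries 21. ITGA2, ITGB4 and LAMC3 were called only with the block, and ITGA1 and ITGB8 only without it.

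Over all genes, TS against 2D gave 37 calls, and 534 with DESeq2, 19 with limma on log2(FPKM + 0.1), 70 without a filter, 5 without parental replicate 2 and 10 without parental replicate 3. The interaction gave 104, and 539 with DESeq2. PR against parental gave 4783, and 3026 with limma on log2(FPKM + 1), 3127 without parental replicate 2, 2194 without PR replicate 1 and 1174 without PR replicate 2. A549 against H460 gave 4284, and 2715 without parental replicate 2. ITGAX, ITGB6 and ITGB7 fell under the mean count of 10 needed for a test when PR replicate 1 was left out.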
